A study of Homo sapiens with 4 samples.

Results

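The 9 chemokine receptor genes described here, CCR1, CCR4, CCR7, CCR8, CCR9, CCR10, CXCR3, CXCR4 and CXCR5, were chosen by name from a list of 10, as the protein-coding genes that the deposited table held among its 25122 genes. CCR6, the tenth name, was not analysed here. The rule itself selected on whether the table holds a row for the name, and 39 rows had no read in any of the 4 libraries. The names were drawn up with earlier results of these data known, so how many of the 9 were called is a description of these genes and supports nothing about the family. RNA was sequenced from Jurkat cells, an established line of human T-cell acute lymphoblastic leukaemia. Of 4 mRNA libraries, 2 carried a control short hairpin RNA (shcontrol) and 2 a short hairpin RNA against BDH1 (shBDH1), the gene of a mitochondrial ketone body dehydrogenase; the labels give the genotype of all 4 as WT. The labels name no hairpin sequence or vector and do not say whether the cells were 1 clone or a pool.

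Chemokine receptors are G protein-coupled receptors with 7 membrane-spanning segments that read gradients of small secreted proteins, the chemokines. On binding they release the beta and gamma subunits of inhibitory G proteins, which act on PI3-kinase gamma and phospholipase C and, through RAC and RAP1, on actin and integrins, so that the cell moves or adheres. In T cells the set of receptors changes with maturation: CXCR4 retains thymocyte precursors and marrow-resident cells, CCR9 is used in the thymus and gut, CCR7 takes cells into lymph nodes, and CXCR3, CCR4, CCR8 and CXCR5 are typical of effector, skin-homing, regulatory and follicular helper cells.

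The libraries held between 28681511 and 29453383 reads in genes. Although these totals were close, 1601 and 1644 genes of the table had no read in the shcontrol libraries, against 970 and 1067 in the shBDH1 libraries. Of all genes with a mean of 10 to 100, where CCR1, CXCR3, CCR9 and CCR10 lie, 11.8% were called higher and 3.5% lower; the part of this shift in the results for these receptors was not tested. Levels are normalized counts, which are reads divided by 1 size factor per library, and differences are limma log2 fold changes of shBDH1 relative to shcontrol on the log2(value + 1) scale, with a standard error (SE) and p-values adjusted over 19301 genes. A change is called at an adjusted p under 0.05. BDH1 itself was at 1725 and 1911 in shcontrol and at 1221 and 1412 in shBDH1, so its mRNA was lowered and not removed. The T lineage markers CD3D, CD3E, LCK and ZAP70 were high in every library, and all 12 T lineage markers listed were measured. Of these, 9 were called higher and 1 lower, where 20.3% and 20.8% of all genes tested were called. Their sum went from 55001 to 55041 in shcontrol to 66268 to 66928 in shBDH1. The erythroid factor KLF1 was at most at 15.4 normalized counts in any library. B cell markers summed to 311 to 313 in shcontrol and 723 to 769 in shBDH1, NK markers to 109 to 110 and 225 to 247, and myeloid markers to 78.0 to 78.7 and 145 to 153, with 1 of 3, 2 of 4 and 1 of 3 tested markers called higher. Fibroblast and epithelial markers summed to 718 to 732 and to 922 to 1031, with 2 of 3 called higher. LYZ was at 0 or 1.02 in each library, CD14 at 6.13 or less and CD22 at 0 in all but 1. These markers moved with the receptors that rose, and their part in those results was not tested. In such bulk RNA, more cells with a receptor and more receptor mRNA per cell cannot be told apart.

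In shBDH1 the receptor set shifted away from CXCR4 and CCR8 and towards CCR7, CCR4, CXCR3, CCR1 and CXCR5. Limma called 5 of the 9 higher and 2 lower, against 20.3% of all genes tested called higher and 20.8% lower. The shBDH1 libraries lay above both shcontrol libraries for 7 receptors, where 34.1% of all genes did so, and below both for the other 2, where 34.9% did. The median log2 fold change was 1.59 over the 9 and -0.01 over all genes. All 9 passed the filter of a mean of 10, but CCR1, CXCR3 and CCR9 averaged under 10 in shcontrol and passed only because of shBDH1. Genes that enter in this way had to be higher in shBDH1: of 582 such genes tested, 189 were called higher and 0 lower by limma, with a median of 1.59. Among the other 6 receptors, which averaged at least 10 in both groups, 3 were called higher and 2 lower, with a median of 0.61, where 20.2% and 21.6% of 18422 such genes were called.

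**Figure D1:**
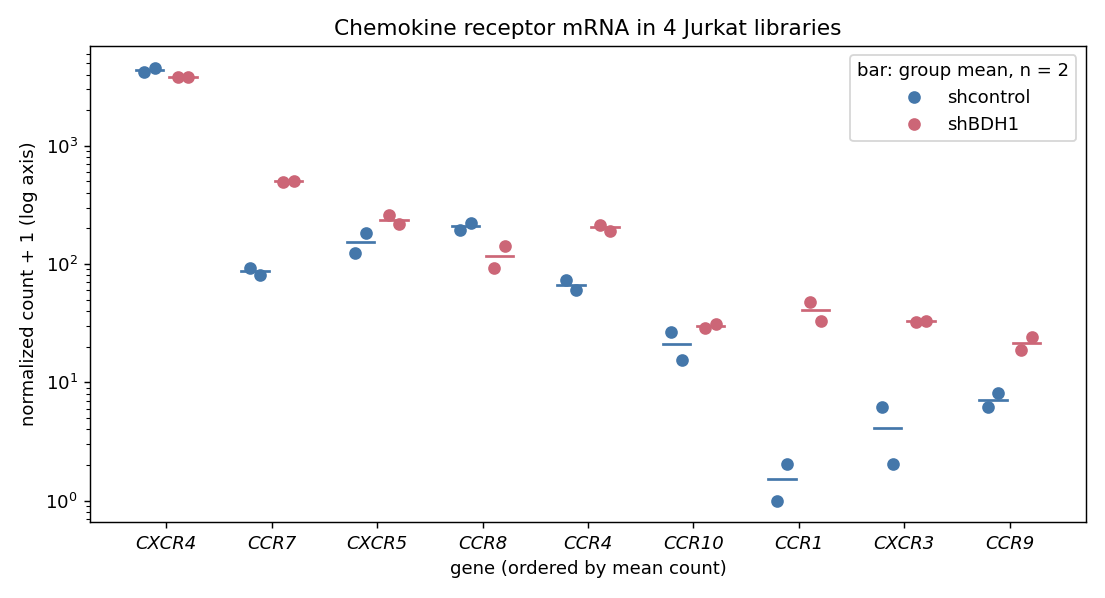
Normalized counts plus 1 (log axis) of the 9 receptor genes in each library; points are libraries, bars group means (n = 2 each). The 2 libraries of a group lie close together for CCR7, near 490 and 506 in shBDH1 against 92.4 and 79.7 in shcontrol, while CCR1 sits at 0 and 1.02 in shcontrol.

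CXCR4, the receptor for CXCL12, was by far the most abundant. It lay at 4172 and 4579 normalized counts in shcontrol and at 3785 and 3795 in shBDH1. Both shBDH1 libraries were thus below both shcontrol libraries, but the shcontrol pair differed from each other about as much as the lower of them differed from shBDH1. CXCR4 fell by 0.21 on the log2 scale (SE 0.05, 95% interval -0.31 to -0.10, limma adjusted p = 0.0022), from 4375 ± 288 to 3790 ± 7.21 (SD, n = 2 each), which is -13.4%. Without shcontrol replicate 2 the value was -0.14 and was no longer called (limma adjusted p = 0.13). The gene (ENSG00000121966) lies on chromosome 2 from 136114349 to 136118165 (hg38), minus strand.

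CCR7, the receptor for CCL19 and CCL21 that guides naive and central memory T cells into lymph nodes, showed the most precise rise. The shcontrol libraries held 92.4 and 79.7 and the shBDH1 libraries 490 and 506, so that libraries of a group differed far less than the groups did. The mean went from 86.1 ± 8.98 to 498 ± 10.9 (SD, n = 2 each), a 5.79-fold difference and a log2 fold change of 2.52 (SE 0.18, 95% interval 2.15 to 2.89, limma adjusted p = 3e-12). CCR7 (ENSG00000126353) spans 40553769 to 40565472 on chromosome 17, minus strand.

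CCR4, the receptor for CCL17 and CCL22 found on skin-homing, type 2 helper and regulatory T cells, was at 72.9 and 59.3 in shcontrol and at 214 and 191 in shBDH1. Here too both pairs were tight and far apart. It rose by a log2 fold change of 1.61 (SE 0.24, 95% interval 1.11 to 2.11, limma adjusted p = 3.9e-06), with means of 66.1 ± 9.63 and 203 ± 16.4 (SD, n = 2 each). CCR4 (ENSG00000183813) lies on chromosome 3 from 32951574 to 32956349, plus strand.

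CXCR3, the receptor for the interferon-induced chemokines CXCL9, CXCL10 and CXCL11, was close to the detection limit in shcontrol. It was at 5.13 and 1.02 there, against 31.5 and 32.2 in shBDH1. Summed over libraries this was 6 reads against 64, a ratio per size factor of 10.4 with an exact 95% counting interval of 4.50 to 29.3. By limma CXCR3 was higher by 3.22 on the log2 scale (SE 0.83, 95% interval 1.51 to 4.93, adjusted p = 0.0024). The value was 4.02 without shcontrol replicate 1 and 2.42 without shcontrol replicate 2. CXCR3 (ENSG00000186810) lies on chromosome X from 71615916 to 71618517, minus strand.

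CCR1, an inflammatory receptor for CCL3 and CCL5 that is known mainly from myeloid cells, was all but undetected in shcontrol, with no read in 1 library and 1 read (1.02 normalized counts) in the other. In shBDH1 it was at 47.2 and 32.2. The totals of 1 and 80 reads give a ratio of 77.6 with an exact 95% counting interval of 13.5 to 3104, so the size of the difference is poorly known; counting intervals cover counting error only. CCR1 was called higher (limma adjusted p = 2e-04). Its fitted log2 fold change of 4.81 depends on the pseudocount, with 5.50 at 0.5 and 3.005 at 5. Over all alternatives that tested it the value ranged from 3.005 to 6.28, the latter by DESeq2. CCR1 (ENSG00000163823) lies on chromosome 3 from 46201709 to 46208396, minus strand.

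CXCR5, the receptor for CXCL13 that takes B cells and follicular helper T cells into follicles, was at 123 and 181 in shcontrol and at 257 and 215 in shBDH1. The groups did not overlap, but the spread within each was wide. CXCR5 rose by 0.65 on the log2 scale (SE 0.20, interval at 95% from 0.23 to 1.07, adjusted p = 0.011 by limma). The call was lost without shcontrol replicate 1 (0.38, limma adjusted p = 0.2) and without shBDH1 replicate 1 (0.52, limma adjusted p = 0.13). CXCR5 (ENSG00000160683), on chromosome 11 from 118883766 to 118897799, plus strand, shares 3925 of its 4431 exon bases with BCL9L on the opposite strand, so its value is uncertain, as described below.

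CCR8, the receptor for CCL1 carried by regulatory and skin-resident T cells, went the other way. It was at 194 and 222 in shcontrol and at 92.4 and 140 in shBDH1, so the groups stood apart although the shBDH1 pair was spread. The mean went from 208 ± 19.6 to 116 ± 33.5 (SD, n = 2 each), -44.2%. CCR8 fell by 0.86 on the log2 scale (SE 0.22, interval at 95% from -1.32 to -0.40, adjusted p = 0.0025 by limma). Without shBDH1 replicate 1 it was -0.57 and not called (limma adjusted p = 0.069). CCR8 (ENSG00000179934) lies on chromosome 3 from 39329706 to 39333511, plus strand.

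The remaining receptors were not called. CCR9, which with its ligand CCL25 directs cells to the thymus and small intestine, was at 5.13 and 7.15 in shcontrol and at 17.7 and 23.1 in shBDH1. Its log2 fold change of 1.59 had a 95% interval of 0.04 to 3.14 (limma adjusted p = 0.096), and its 12 and 41 reads gave a ratio of 3.32 with an exact 95% counting interval of 1.71 to 6.93. CCR10, a receptor of skin-homing T cells and of plasma cells for CCL27 and CCL28, was at 25.7 and 14.3 in shcontrol and at 27.5 and 30.2 in shBDH1. Its log2 fold change was 0.56 with a 95% interval of -0.54 to 1.67 (limma adjusted p = 0.44), so neither no change nor a more than 3-fold rise lay outside it. It was 0.96 without shcontrol replicate 1 and 0.16 without shcontrol replicate 2. CCR9 (ENSG00000173585) lies on chromosome 3 from 45886504 to 45903177, plus strand, and CCR10 (ENSG00000184451) on chromosome 17 from 42678889 to 42683917, minus strand.

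**Figure D2:**
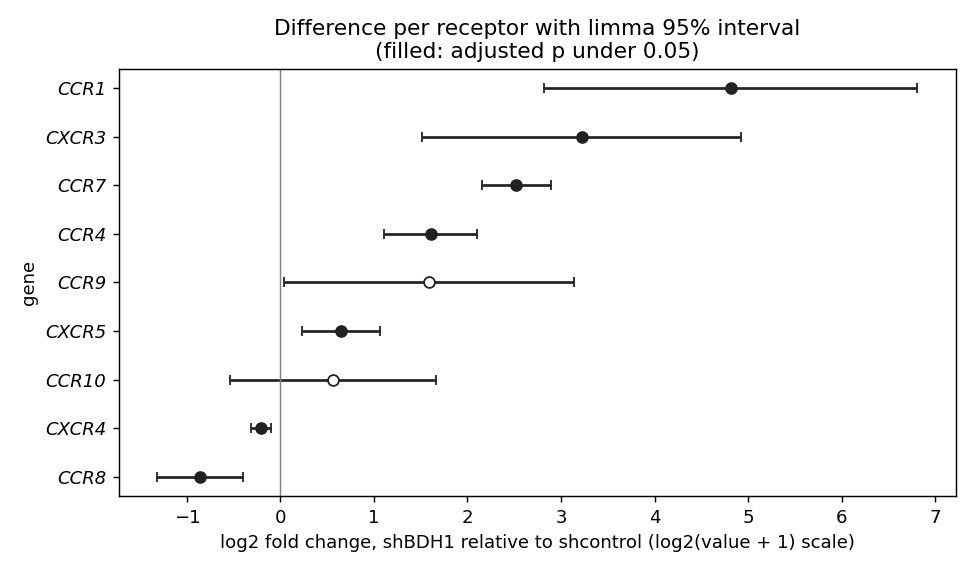
Log2 fold change of each receptor (x axis, shBDH1 relative to shcontrol) with its limma 95% interval; filled points had an adjusted p under 0.05. CCR7, CCR4, CXCR3, CCR1 and CXCR5 lie right of 0 and CCR8 and CXCR4 left of it, and the 4 receptors with means under 100, CCR1, CXCR3, CCR9 and CCR10, have the widest intervals, up to 2.81 to 6.81 for CCR1.

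For the most abundant receptor and 3 of those that rose, the stretch before the transcription start in RefSeq (GRCh38.p14) is shown, so that the sequences upstream of genes that moved apart can be set side by side. CCR9 and CXCR5 also had a RefSeq entry, which makes 6 of 9; CCR7, CCR8 and CCR10 had none. Windows of 250 bases before the start were searched on both strands for 6 short motifs, which were chosen after these sequences had been read and the RUNX and GATA matches below had been noticed, so the matches are shown as letters only: the E-box CACGTG bound by MYC, the RUNX motif TGTGGTT, the GATA motif AGATAA, the T-box motif AGGTGTG, the KLF motif CACCC and the AP-1 motif TGANTCA. Among 35116 such windows of all genes these were found in 6.35%, 3.65%, 9.17%, 3.84%, 54.7% and 6.57%. Capitals mark matches, and bases of the printed stretches downstream of the GENCODE 29 start are left off, a limit set after the sequences were read. For each receptor only the RefSeq window nearest its GENCODE 29 start was searched, over its whole length. CXCR4 had 3 RefSeq windows and CCR9 had 2, so their other windows were not searched. The window of CXCR5, not printed, lies inside the gene, from 118893142 to 118893391, after its GENCODE start at 118883766. The stretches lie at chr2:136118166-136118399 (CXCR4, minus strand), chr3:32951394-32951573 (CCR4, plus strand), chrX:71618518-71618761 (CXCR3, minus strand) and chr3:46208397-46208563 (CCR1, minus strand), each printed 5′ to 3′ on the gene's strand.
CXCR4: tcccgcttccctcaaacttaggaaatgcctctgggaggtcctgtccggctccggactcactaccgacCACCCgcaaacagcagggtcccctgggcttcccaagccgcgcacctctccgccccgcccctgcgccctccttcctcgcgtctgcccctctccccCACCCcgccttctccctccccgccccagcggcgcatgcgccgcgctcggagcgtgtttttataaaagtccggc
CCR4: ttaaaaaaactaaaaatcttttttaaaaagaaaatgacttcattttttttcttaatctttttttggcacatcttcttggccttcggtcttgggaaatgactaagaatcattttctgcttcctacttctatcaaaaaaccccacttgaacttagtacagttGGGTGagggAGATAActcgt
CXCR3: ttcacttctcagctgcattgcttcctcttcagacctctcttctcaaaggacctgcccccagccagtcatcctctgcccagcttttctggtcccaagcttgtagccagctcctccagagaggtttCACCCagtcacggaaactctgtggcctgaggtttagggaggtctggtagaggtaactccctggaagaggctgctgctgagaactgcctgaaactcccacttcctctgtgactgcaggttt
CCR1: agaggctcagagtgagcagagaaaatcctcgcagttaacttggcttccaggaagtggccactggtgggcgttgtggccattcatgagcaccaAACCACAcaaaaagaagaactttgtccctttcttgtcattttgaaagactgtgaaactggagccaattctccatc
No searched window of the 6 receptors held the E-box, T-box or AP-1 motif. CCR1 held the RUNX motif once, as AACCACA on the printed strand, 158 bases before the RefSeq start, and CCR4 held AGATAA once, 81 bases before its own. The last 83 bases before that start are left off the printed CCR1 stretch, and the last 70 off that of CCR4. The KLF motif occurred in each searched window but that of CCR1. It lay at 2 places in CXCR4, CCR4, CCR9 and CXCR5, and once in CXCR3. The second place in CCR4 lies in the bases left off. A match of letters is not a measured binding site.

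Between genes, levels were compared only as normalized counts per kilobase of exon. CXCR5 was divided by all its 4431 exon bases, of which 3925 are shared with BCL9L and 506 are its own. Its level per kilobase and its place in the order are therefore uncertain. CCR10 shares 31.3% of its exon bases with other genes. In shcontrol the order was CXCR4 at 1967 ± 129, CCR8 at 158 ± 14.9, CXCR5 at 34.3 ± 9.21, CCR7 at 34.3 ± 3.58, CCR4 at 21.4 ± 3.11, CCR10 at 7.63 ± 3.07, CCR9 at 2.19 ± 0.51, CXCR3 at 1.65 ± 1.56 and CCR1 at 0.19 ± 0.26 per kilobase (SD, n = 2 each). In that order CXCR5 and CCR7 did not differ beyond the sum of their SDs, nor did CCR9 from CXCR3 or CXCR3 from CCR1, a criterion chosen after the values were seen. In shBDH1 CXCR4 stayed on top at 1704 ± 3.24, but CCR7 was next at 199 ± 4.34, ahead of CCR8 at 88.1 ± 25.4, CCR4 at 65.5 ± 5.30 and CXCR5 at 53.2 ± 6.59 per kilobase. CXCR3 at 17.0 ± 0.28 and CCR1 at 14.5 ± 3.88 came ahead of CCR10 at 11.01 ± 0.72 and CCR9 at 7.27 ± 1.37. Here CCR8 and CCR4 were not separated by the sum of their SDs, nor was CXCR3 from CCR1 or CCR1 from CCR10.

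The 9 genes together summed to 2126 and 2328 normalized counts per kilobase in shcontrol and to 2146 and 2173 in shBDH1, so the total hardly differed between groups. Its makeup did differ. CXCR4 made up 88.2% and 88.4% of the sum in shcontrol and 79.3% and 78.5% in shBDH1. The other 8 receptors summed to 250 and 269 per kilobase in shcontrol and to 444 and 467 in shBDH1. CCR7 accounted for 1.73% and 1.37% of the total in shcontrol and for 9.11% and 9.28% in shBDH1, while CCR8 went from 6.93% and 7.23% to 3.27% and 4.88%. The sums and shares include CXCR5, whose level per kilobase is uncertain because of the exon bases shared with BCL9L, so they are uncertain as well.

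**Figure D3:**
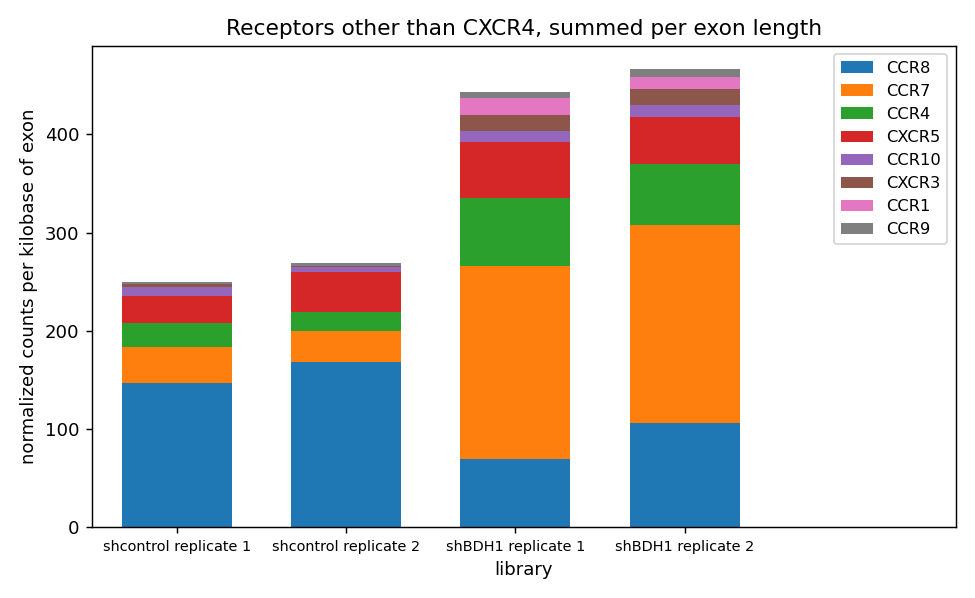
Normalized counts per kilobase of exon (y axis) of the 8 receptors other than CXCR4, stacked in each library (x axis). CCR8 is the largest block in the 2 shcontrol libraries and CCR7 in the 2 shBDH1 libraries, and the stack grows from 250 and 269 to 444 and 467. The height of the CXCR5 block is uncertain, as 3925 of its 4431 exon bases are shared with BCL9L.

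The genomic surroundings of the receptors were read from GENCODE 29, for genes that overlap a receptor or start within 50 kb of it and averaged at least 10. There were 14 of them around 7 receptors, and none around CCR4 or CXCR4. Limma called 8 higher and 1 lower, where 20.3% and 20.8% of all genes tested were called. Among the 8 is CCR3, which averaged 0.51 in shcontrol and passed the filter only through shBDH1. CCR1 lies inside the span of CCR3, an eosinophil and type 2 helper receptor on the opposite strand, without shared exon bases. CCR3 was at 1.03 and 0 in shcontrol and at 18.7 and 36.2 in shBDH1, so this pair was low together in shcontrol and present together in shBDH1. CCR9 lies inside the span of LZTFL1, a cilium-related gene, again with no shared exon bases. LZTFL1 rose from 1037 and 1142 to 1820 and 1905 (log2 fold change 0.77, SE 0.08, limma adjusted p = 1.5e-09). It averaged 1476 normalized counts, and reads of its unspliced RNA at CCR9 were not tested for. The antisense transcript AC099782.2, which starts 44239 bases from CCR9, rose by 2.28 (limma adjusted p = 1.4e-06).

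CXCR5 has 88.6% of its exon bases in common with BCL9L, a WNT pathway coactivator on the other strand, and only 506 bases of its own. BCL9L rose as well, from 1022 and 950 to 1343 and 1241 (log2 fold change 0.39, SE 0.08, limma adjusted p = 0.00032). Without a known strand setting, reads in the shared bases cannot be told apart, and the level and change of CXCR5 are uncertain for that reason. UPK2, another neighbour of CXCR5, was at 180 in shBDH1 replicate 1 and between 64.4 and 86.2 in the other libraries, and was not called (limma adjusted p = 0.16). CCR10 shares 31.3% of its 2619 exon bases with other genes, 381 of them with CNTNAP1 and 439 with the antisense transcript AC100793.2. CNTNAP1 rose by 0.89, its neighbours PLEKHH3 by 0.94 and AC100793.3 by 1.05 (limma adjusted p from 6.6e-05 to 0.00052), while AC100793.2 at 0.31 and TUBG2 at 0.06 were not called.

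Beside CCR8, the processed pseudogene HNRNPA1P21 starts 5273 bases away on the same strand and fell by 0.82 on the log2 scale (SE 0.20, limma adjusted p = 0.0013), a size close to that of CCR8. As a copy of HNRNPA1 it may hold reads of that gene. CX3CR1, the fractalkine receptor 47971 bases from CCR8, went from 63.7 and 41.9 to 26.5 and 41.2 and was not called (limma adjusted p = 0.24). The long noncoding RNA AC004585.1, which starts 48446 bases from CCR7, rose by 1.52 (SE 0.17, limma adjusted p = 3.1e-08). GCNA, next to CXCR3, was not called (-0.19, limma adjusted p = 0.57).

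**Figure D4:**
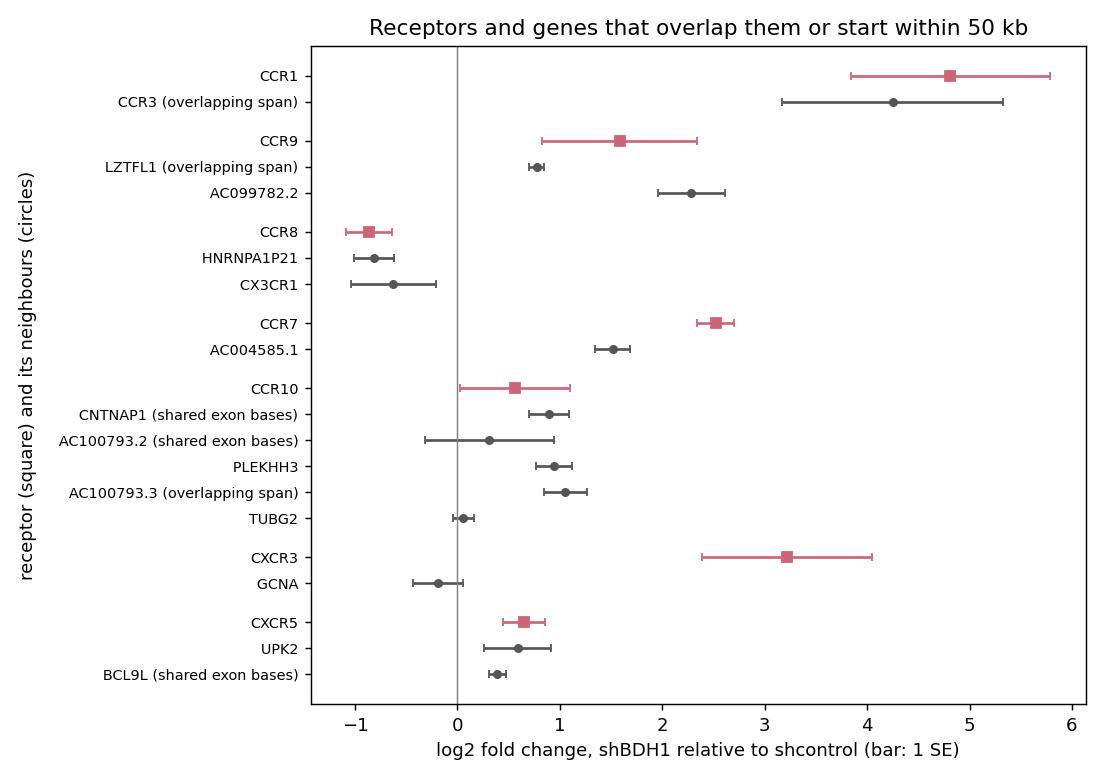
Log2 fold change (x axis, bars of 1 SE) of 7 receptors (squares) and of the 14 genes that overlap them or start within 50 kb (circles); labels mark shared exon bases and overlapping spans. CCR1 and CCR3 lie together on the right, CCR8 and HNRNPA1P21 left of 0, and CXCR3 far from its neighbour GCNA.

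Receptors outside the 9 were described from a list that was not complete. Of 11 in the table from a list of further conventional and atypical receptors, 6 averaged at least 10. Limma called 2 higher and 0 lower, where 20.3% and 20.8% of all genes tested were called. The 0 also held at an unadjusted p and by edgeR, DESeq2 and limma-voom. The count of 2 was 1 with DESeq2, with a mean of at least 50, with 1 prior for all genes, and without shBDH1 replicate 1 or shcontrol replicate 1. CXCR6, the receptor for the membrane-bound chemokine CXCL16, was at 19.5 and 13.3 in shcontrol and at 60.0 and 78.4 in shBDH1 (log2 fold change 2.02, SE 0.45, limma adjusted p = 6e-04). PITPNM3, a membrane protein described as a receptor for CCL18, rose by 0.45 (limma adjusted p = 0.034). CCR2 and CCR3 were not in that list and are named here with their values known. CCR2, a monocyte and memory T cell receptor for CCL2, was at 1.03 and 5.11 in shcontrol and at 20.6 and 28.2 in shBDH1 (limma adjusted p = 0.011). It was called higher, as was CCR3, whose values are given above with CCR1, and both averaged under 10 in shcontrol.

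Of 44 chemokine ligands listed, 14 were in the table, and only 5 of these averaged at least 10. Ligands not among these 14 were not analysed here. Limma called 1 higher and 0 lower, where 20.3% and 20.8% of all genes tested were called. The 0 also held at an unadjusted p and by edgeR, DESeq2 and limma-voom. CXCL16 was the one that rose, from 205 and 178 to 353 and 335 (log2 fold change 0.84, SE 0.16, limma adjusted p = 0.00011), so ligand and receptor CXCR6 were both higher in shBDH1. CCL5, a ligand of CCR1, was at 5.13 and 4.09 in shcontrol and at 17.7 and 18.1 in shBDH1 (limma adjusted p = 0.09). The CCR8 ligand CCL1 was at 10.3 and 6.13 against 10.8 and 19.1, the CXCR5 ligand CXCL13 at 28.8 and 8.18 against 2.95 and 17.1, and CXCL3, which draws neutrophils, at 28.8 and 18.4 against 13.8 and 23.1; none of these passed the test. CXCL12, the ligand of CXCR4, and CCL19, a ligand of CCR7, both named after their values were seen, stayed at 7.86 or less in every library.

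In the list of G protein and PI3-kinase gamma genes, 12 of 20 tested rose and 3 fell, with a median of 0.29, where 20.3% and 20.8% of all genes were called. Of the 12, 1 averaged under 10 in shcontrol, and with 1 prior for all genes 3 rose and 1 fell. GNB1, a beta subunit, rose from 12218 and 12144 to 16839 and 15481 (log2 fold change 0.41, limma adjusted p = 8.9e-10), and PREX1, a RAC exchange factor driven by beta-gamma subunits, rose by 0.90 (limma adjusted p = 1.8e-09). The alpha subunits GNA12 and GNAQ, which do not belong to the inhibitory class, fell by 0.84 and 0.36 (limma adjusted p = 1.7e-09 and 1.2e-08).

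Of 31 tested genes of the RAC and RAP1 machinery, 15 rose and 6 fell, with a median of 0.10. The share that fell was thus near that of all genes, 20.8%, while 20.3% of all genes rose, and with 1 prior for all genes 7 rose and 2 fell. RAC2, the RAC form of blood cells, rose by 0.78, RASSF5, a RAP1 effector that activates integrins, by 0.61, RAP1B by 0.55 and the exchange factor ARHGEF6 by 0.44 (limma adjusted p from 6.2e-13 to 1.5e-10). Of 22 genes that modify or desensitise receptors, 9 rose and 5 fell, with a median of 0.12, and here too the share that fell was near that of all genes. With 1 prior for all genes 3 rose and 1 fell, and without shcontrol replicate 2 the count that fell was 3. RGS3, which ends G protein signals, rose from 52.4 and 54.2 to 305 and 306 (log2 fold change 2.50, limma adjusted p = 4.3e-10). USP8 and STAM, which act in sorting of internalised receptors, rose by 0.50 and 0.38, and the receptor kinase GRK5 by 0.57 (limma adjusted p from 1.7e-07 to 5.2e-05).

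Of other receptors that place lymphocytes in tissues, 6 of 14 tested rose and 1 fell, with a median of 0.74, against 20.3% and 20.8% of all genes. Of the 6 that rose, 2 averaged under 10 in shcontrol and passed the filter only through shBDH1, and with a mean of at least 50 the count was 3. With 1 prior for all genes, 0 fell (1 at an unadjusted p). GPR183, the oxysterol receptor that positions cells at follicle borders, rose from 44.2 and 64.4 to 216 and 255 (log2 fold change 2.12, SE 0.26, limma adjusted p = 8.7e-08). S1PR1, the sphingosine-1-phosphate receptor needed to leave lymph nodes, rose from 353 and 357 to 604 and 603 (0.77, SE 0.12, limma adjusted p = 6e-06). The abundant receptor GPR174 rose by 0.54 (limma adjusted p = 4e-10), and P2RY8, which confines cells to germinal centres, fell by 0.33 (limma adjusted p = 1.3e-05).

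Among transcription factors known to act on these receptors or on the T cell subsets that carry them, 13 of 22 tested rose and 0 fell, the latter also at an unadjusted limma p and by edgeR, DESeq2 and limma-voom, with a median of 0.43, where 20.3% and 20.8% of all genes were called. With 1 prior for all genes, 5 rose. Without shBDH1 replicate 1, limma called 1 lower, FOXP3 (-1.99, adjusted p = 0.022). KLF2, a quiescence factor that drives S1PR1, rose from 1300 and 1312 to 3071 and 2406 (log2 fold change 1.06, SE 0.08, limma adjusted p = 9.8e-12). RORA rose by 0.72, the type 2 helper factor GATA3 by 0.57 and RUNX1 by 0.29 (limma adjusted p from 1.5e-10 to 8.7e-09). TBX21, the type 1 helper factor that acts on CXCR3, was picked for mention with its values known. It went from 21.6 and 34.7 to 125 and 80.4 (1.83, SE 0.38, limma adjusted p = 0.00023).

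**Figure D5:**
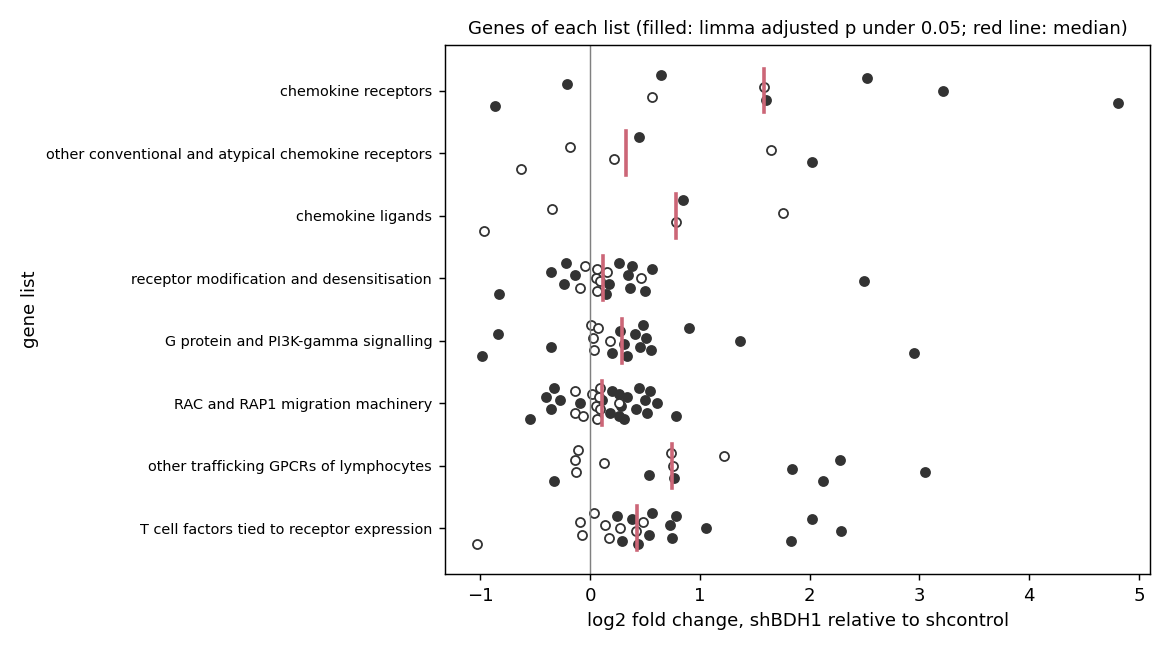
Log2 fold change (x axis) of the tested genes in each list (y axis); filled circles had a limma adjusted p under 0.05 and red lines are medians. Medians run from 0.10 for the RAC and RAP1 machinery to 1.59 for the 9 receptors, 3 of which averaged under 10 in shcontrol.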

How the data were processed

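RNA of 4 Jurkat libraries was measured by paired-end mRNA sequencing. The deposited table holds a signal and not raw counts: in each library every value is a whole multiple of 1 step, as when the authors divide reads by a size factor. Reads recovered from the steps were whole for 100% of values within 0.01 reads, at size factors of 0.974 and 0.978 (shcontrol) and 1.02 and 0.994 (shBDH1). Per the submitters' processing notes, HISAT2 2.2.1, FastQC 0.11.9 and hg38 were used; the counter, annotation release and strand setting were not given in the sources used here.

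Genes with a mean of at least 10 (19301) were tested with limma 3.58.1 in R 4.3.3 on log2(value + 1), its prior for the spread following the mean level (2 residual and 25.8 prior degrees of freedom) and Benjamini-Hochberg adjustment over all of them. On the recovered reads, edgeR 4.0.16, DESeq2 1.42.0 and limma-voom were run as alternatives, beside other filters, pseudocounts, 1 prior for all genes, a replicate block and each library left out. For shBDH1 replicate 2 the step is so near 1 that an automated check of units did not accept its reads as recovered and asked that the count tests be dropped; they were kept as alternatives over all 4 libraries, and no main test rests on them, though the read totals and ratios of CCR1, CXCR3 and CCR9 use the recovered reads. The fit was tested on simulated data. Tables and figures were made in Python 3.11.15 with pandas 2.3.3, numpy 2.4.6, scipy 1.17.1 and matplotlib 3.10.9. Levels per kilobase use the union of GENCODE 29 exons.

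Members and gene lists were chosen with earlier results of these data known, and the 6 motifs after the members' promoter sequences had been read. The criterion for the order of levels, the trimming of promoters and the listing of neighbours' overlaps were set after values were seen. The list of other receptors was incomplete when written, and not every receptor of the table is reported here. The text names the 9 receptors and BDH1, ligands with a mean of at least 10, up to 4 called genes with the smallest p of each other list, neighbours within 50 kb with a mean of at least 10, and the 3 genes nearest to CXCR4 in pattern. Outside this rule, CCR2, CXCL12, CCL19, TBX21 and FOXP3 are named with their values known. Cell type markers are named to check the label. Whether a group's libraries stem from separate cultures is not stated in the labels; p-values therefore cover the spread between these libraries alone, and that may be technical. Libraries of a group differed beyond sampling noise (chi-square per degree of freedom 3.71 and 4.98, against 42.4 to 45.2 between groups), so none was merged as a copy of another; this does not show separate cultures.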

Additional observations from a re-analysis of the deposited data

How the results depend on the processing

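Over 15 alternative settings, 119 of 130 values of single receptors stayed on their side of the threshold, 10 lost a call, 1 gained a call and 0 changed direction in limma, edgeR or DESeq2. CCR7, CCR4 and CCR1 kept their calls in each setting that tested them; with a mean of at least 50, CCR1, CXCR3, CCR9 and CCR10 were not tested, which left 3 receptors higher. With 1 prior for all genes, limma called 1598 genes higher and 1246 lower, and 0 receptors lower (1 at an unadjusted p); CXCR3, CXCR5, CXCR4 and CCR8 were then not called (adjusted p = 0.059, 0.16, 0.16 and 0.11), while CCR9 was (0.04). Without a filter, 4 receptors were called higher and 1 lower, against 3038 and 3046 of all genes, and CXCR5 (adjusted p = 0.099) and CCR8 (0.054) were not called. The cause was not tested. With each library left out, 4 to 5 receptors were called higher and 1 to 2 lower, against 3145 to 3472 and 3206 to 3639 of all genes; where 1 library remained in a group, it was assumed to vary like the other. The replicate number is not said to mark a shared batch, and same-numbered libraries did not deviate together (r = 0.0013 over 19301 genes). With the replicate block, 4108 genes were higher and 4217 lower, and 5 receptors were higher and 2 lower, as without the block. Of 210 counts for the other lists, 17 moved by over 1.5 times, 10 of them with 1 prior for all genes. Depth limits CCR1, CXCR3, CCR9 and CCR10: the median SE was 0.50 at a mean of 10 to 100, 0.14 at 100 to 1000 and 0.064 above that.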

Other observations

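The genes whose pattern over the 4 libraries lay nearest to that of CXCR4 were NSUN5, an RNA methyltransferase, B9D1, a ciliary protein, and MTHFD2L, a mitochondrial folate enzyme, at Euclidean distances of 0.0095, 0.021 and 0.022 in log2(value + 1) centred on each gene's mean. They were picked among 11213 protein-coding genes with a mean of at least 100, of which 510 lay within a distance of 0.1. NSUN5 was at 2369 and 2595 in shcontrol and at 2150 and 2138 in shBDH1. With 4 libraries in 2 groups, such a likeness holds little beyond the group difference.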
